A study of Mus musculus with 2 samples.

Results

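The genes described here are 10 members of the fibroblast growth factor (FGF) pathway: the ligand gene Fgf2, the receptor genes Fgfr1, Fgfr2, Fgfr3 and Fgfr4, and the feedback inhibitor genes Spry1, Spry2, Spry4, Spred1 and Dusp6. They were taken by symbol, and each of the 10 matched 1 of the 26100 genes shared by both count matrices. Their levels were read in 2 single-cell RNA libraries from a mouse study of fibroblasts reprogrammed to induced myogenic progenitor cells (iMPCs). One library held mouse embryonic fibroblasts (MEFs) grown in MEF media. The other held iMPCs, made from such fibroblasts by MyoD together with F/R/C, a treatment the labels do not spell out, and kept in F/R/C media. Cells of both libraries carried the genotype Tg:Pax7-nGFP/C57BL6;DBA2, which joins a Pax7-nGFP reporter transgene to a mixed C57BL6 and DBA2 background. The series describes the iMPC culture as a stable clone, so the cells stand for 1 clone. The treatment protocol of the MEF sample repeats the iMPC text, whereas its treatment label names MEF media, and the label was followed.

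FGF ligands bind receptor tyrosine kinases at the cell surface with heparan sulfate as a cofactor, and the activated receptors signal through adaptors, RAS and the kinases RAF, MEK and ERK. ERK activity induces its own brakes: Sprouty and SPRED proteins dampen signalling towards RAS and RAF, and DUSP6 dephosphorylates ERK. In skeletal muscle, FGF signalling is known to favour proliferation of satellite cells and myoblasts and to delay their differentiation, FGFR1 and FGFR4 are the receptors best known in these cells, and Spry1 is known for its part in satellite cell quiescence.

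There was 1 library per group, so no difference between MEFs and iMPCs has a replicate check and no test across samples was possible. Cells of a library are not replicates. Each level is the sum of unique molecular identifiers (UMIs) of a gene over a set of cells, scaled to 1000000 UMIs of that set (CPM), with an exact 95% Poisson interval. Ratios have exact 95% intervals too, and all these intervals cover counting error only. In summed counts, fewer expressing cells and less RNA per expressing cell cannot be told apart, so the share of cells with a UMI is given as well, after thinning each cell to 5000 UMIs.

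The MEF library held 6043 cells with a mitochondrial share of at most 20%, with a median of 18929 UMIs per cell and 118069653 UMIs in all. The iMPC library held 9349 cells that also had at least 8036 UMIs, with a median of 20846 and 232728796 UMIs in all. The iMPC cells were split by UMIs of 4 genes. The Pax7 set held 2180 cells with Pax7, the transcription factor of satellite cells, and no UMI of Myog. The Myog set held 1724 cells with at least 5 UMIs of Myog, the factor of committed myoblasts, and at most 1 of Ckm. The Ckm set held 1037 cells with at least 5 UMIs of Ckm, the muscle creatine kinase of myocytes. The Dcn set held 553 cells with at least 5 UMIs of Dcn, the proteoglycan decorin of fibroblasts. Of all iMPC cells, 4001 (42.8%) met none of these rules and 146 met more than 1, among them 110 in both the Pax7 and the Dcn set. The median depth was similar in the Pax7 set (18729.5 UMIs) and the Dcn set (18064), and higher in the Myog set (23857.5) and the Ckm set (42148). Ribosomal protein genes took 21.9% of UMIs in MEFs and 24.8 to 33.2% in the 4 iMPC sets. The cells of the 2 libraries shared 16 barcodes.

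The sets were then read on markers. The satellite cell, committed myoblast, myocyte and fibroblast lists each hold a gene that defined a set. Part of those sums thus follows from the rule. In their own sets Pax7 stood at 116 CPM, Myog at 1339, Ckm at 409 and Dcn at 1162. The 10 satellite cell markers, Pax7 included, summed to 856 CPM in the Pax7 set, 458 in the Myog set, 426 in the Ckm set, 410 in the Dcn set and 266 in MEFs. Single markers differed: Myf5 was highest in the Pax7 set (70.3 CPM), Cdh15 was about as high in the Myog and Ckm sets (169 and 160 CPM) as in the Pax7 set (172), Itga7 was highest in the Ckm set (143 CPM against 80.1 in the Pax7 set), Vcam1 was highest in MEFs (191 CPM against 42.6 in the Pax7 set), and Chodl had 3 UMIs in the Pax7 set. The 10 fibroblast markers, Dcn included, summed to 7290 CPM in MEFs, 5272 in the Dcn set, 1417 in the Pax7 set, 309 in the Myog set and 149 in the Ckm set. The 10 myocyte markers, Ckm included, summed to 96.1 CPM in MEFs, 943 in the Pax7 set, 14195 in the Myog set, 49586 in the Ckm set and 4464 in the Dcn set, so the Dcn set held muscle transcripts as well. The 7 committed myoblast markers, Myog included, summed to 6549 CPM in the Myog set and 6312 in the Ckm set. Their sums were 1571 CPM in the Dcn set, 798 in the Pax7 set and 790 in MEFs. This list thus did not set the Myog set apart from the Ckm set, or the Pax7 set from MEFs. The 5 cycling markers summed to 143 CPM in MEFs, 984 in the Pax7 set, 652 in the Myog set, 80.2 in the Ckm set and 299 in the Dcn set. Glial markers summed to 13.0 CPM in the Dcn set, and epithelial markers to 14.6 CPM in MEFs. The 5 endothelial markers summed to at most 0.657 CPM and the 5 immune markers to at most 3.49 CPM in any of these sets, with Kdr at 0 in the 4 iMPC sets and Adgre1 and Tyrobp at 0 in all 5. The 5 smooth muscle markers summed to 9884 CPM in MEFs and 1051 to 3329 CPM in the iMPC sets, and the 4 neuronal markers to 249 CPM in the Pax7 set and 49.2 CPM in MEFs. The part of these other transcripts in the members' levels was not tested.

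The receptor make-up of MEFs and the Dcn set differed from that of the other iMPC sets. Of the UMIs of the 4 receptor genes, Fgfr1 made up 97.0% in MEFs (Clopper-Pearson interval 96.7 to 97.2%), 49.5% in the Pax7 set, 34.5% in the Myog set, 65.2% in the Ckm set and 92.4% in the Dcn set. Fgfr4 made up 0% in MEFs, 50.2% in the Pax7 set, 64.9% in the Myog set, 27.9% in the Ckm set and 7.14% in the Dcn set. Fgfr2 made up 2.99% in MEFs and at most 0.282% in any iMPC set. Fgfr3 made up 6.82% in the Ckm set and at most 0.577% elsewhere. These shares are of UMIs from transcript 3′ ends and do not measure receptor protein.

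Fgfr4 (chr13:55152640-55168759, GRCm38, plus strand), the receptor that myogenic cells are known to carry, had no UMI in any of the 6043 MEF cells. Its level was 88.6 CPM in the Pax7 set (interval 85.8 to 91.4), 82.8 in the Myog set, 9.82 in the Ckm set and 14.5 in the Dcn set. The Pax7 and Myog sets were thus high, the Ckm and Dcn sets low, and MEFs at 0. With 3 counts set in place of the MEF count of 0, Fgfr4 was 3486-fold higher in the Pax7 set and 572-fold higher in the Dcn set. The lower ends of the exact intervals were 2834-fold and 461-fold. At 5000 UMIs per cell, 33.1% of Pax7 cells, 32.5% of Myog cells, 4.53% of Ckm cells and 4.70% of Dcn cells had a Fgfr4 UMI, against 0 of 5759 MEF cells, which allows a share of up to 0.0521%. Without thinning the shares were 66.2%, 68.0%, 25.8% and 16.5%, at the unequal depths given above. In the 407 Dcn cells that met no other rule, Fgfr4 stood at 6.92 CPM, below the 14.5 CPM of the whole Dcn set. Free RNA in the iMPC library also held Fgfr4: barcodes of 200 to 600 UMIs, below the UMI minimum for cells, gave 32.7 CPM, above its level in the Ckm and Dcn sets, and barcodes of 1 to 100 UMIs gave 41.7 CPM. A cell of median depth that carried the median 430 UMIs of these barcodes would show a Fgfr4 UMI after thinning in 0.337% of cases.

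Fgfr1 (chr8:25513654-25575718, plus strand), the widely expressed receptor of mesenchymal cells, was highest in the 2 fibroblast-like populations. Its level was 175 CPM in MEFs (interval 172 to 177), 87.3 in the Pax7 set (84.6 to 90.2), 44.0 in the Myog set, 23.0 in the Ckm set and 188 in the Dcn set (180 to 196). All neighbours in this order had intervals that did not overlap, and MEFs and the Dcn set differed by a log2 ratio of only 0.11. The variance of Fgfr1 UMIs per cell was 2.60 times the mean in MEFs and 2.89 times in the Dcn set. The intervals leave this spread out, so they do not settle the order of these populations. At 5000 UMIs, 53.7% of MEF cells, 32.6% of Pax7 cells, 20.2% of Myog cells, 10.0% of Ckm cells and 58.4% of Dcn cells had a UMI. Fgfr1 was thus lower in the Myog than in the Pax7 set and lower again in the Ckm set, whereas Fgfr4 was nearly level between the Pax7 and Myog sets.

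Fgfr2 and Fgfr3 had few UMIs in most populations, the exceptions being Fgfr2 in MEFs and Fgfr3 in the Ckm set. Fgfr2, whose splice forms serve epithelial and mesenchymal cells, stood at 5.39 CPM in MEFs (636 UMIs), 0.227 in the Pax7 set (10 UMIs), 0.0216 in the Myog set (1 UMI), 0.0411 in the Ckm set (2 UMIs) and 0.575 in the Dcn set (7 UMIs). MEFs were above all iMPC sets, each with 10 UMIs or fewer, and among these the Dcn interval (0.231 to 1.18 CPM) lay above those of the Myog and Ckm sets. In GENCODE M21, which may not be the annotation used for counting, the span of Fgfr2 overlaps 69 other genes. Its counts may be affected, which was not tested. Fgfr3 (chr5:33721674-33737068, plus strand), best known from cartilage, stood at 0.0678 CPM in MEFs (8 UMIs), 0.454 in the Pax7 set (20 UMIs), 0.736 in the Myog set (34 UMIs), 2.40 in the Ckm set (117 UMIs) and 0.411 in the Dcn set (5 UMIs). The Ckm interval of 1.99 to 2.88 CPM lay above those of the other 4 sets. At 5000 UMIs only 0.771% of Ckm cells had a Fgfr3 UMI, and the free RNA level was 1.22 CPM.

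The culture was made with MyoD, a factor that binds E-box motifs, and its part in the members' levels was not tested. No start sequence was found for Fgfr1. The sequences before the starts of Fgfr2, Fgfr3 and Fgfr4 are shown. They are the 250 bases before the RefSeq start on GRCm38.p6, read 5′ to 3′ on the gene's strand, from chr7:130266809-130267058 (minus), chr5:33721474-33721723 (plus, 1 of 2 starts) and chr13:55152568-55152817 (plus). Capitals mark the E-box letters CANNTG, searched on both strands.
Fgfr2: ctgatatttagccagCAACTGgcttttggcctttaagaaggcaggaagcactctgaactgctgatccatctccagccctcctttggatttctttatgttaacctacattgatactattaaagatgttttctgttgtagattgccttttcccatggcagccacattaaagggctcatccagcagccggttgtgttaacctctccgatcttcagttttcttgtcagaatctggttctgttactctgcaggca
Fgfr3: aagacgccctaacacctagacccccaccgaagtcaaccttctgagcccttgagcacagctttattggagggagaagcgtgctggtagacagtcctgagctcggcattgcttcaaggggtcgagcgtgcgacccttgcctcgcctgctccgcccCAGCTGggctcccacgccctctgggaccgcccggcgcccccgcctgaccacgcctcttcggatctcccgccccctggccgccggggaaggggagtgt
Fgfr4: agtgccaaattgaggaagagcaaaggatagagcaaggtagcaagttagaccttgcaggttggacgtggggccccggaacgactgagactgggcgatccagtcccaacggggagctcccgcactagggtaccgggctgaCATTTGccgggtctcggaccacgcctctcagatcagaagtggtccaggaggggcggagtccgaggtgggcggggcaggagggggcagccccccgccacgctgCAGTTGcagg
With the start base counted as 0, the Fgfr4 window holds CANNTG at positions -112 and -10. The Fgfr2 window holds it at -235, -2 and 28, of which the last 2 run past the sequence shown. The Fgfr3 sequence holds the CAGCTG form at -97, and the window of the other Fgfr3 start holds none. CANNTG is common: 72.3% of 32851 RefSeq windows running from 250 bases before to 50 after a start hold it, and 16.3% hold CAGCTG, which is 1 case of CANNTG. The windows of Spry1, Spry2 and Dusp6 also hold CANNTG, and those of Spred1 and Fgf2 do not. CCGGAA, a core of ETS factor sites that occurs in 14.9% of windows on either strand, lies at -178 in Fgfr4 and at 33 in Spry2. TGACGTCA, the cAMP response element found in 1.79% of windows, was not matched in the 9 windows found for 8 of the members. A match is a run of letters and not a measured binding site.

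Fgf2 (chr3:37348346-37410108, plus strand), the classic FGF of muscle culture, was mostly a MEF transcript. Its level was 12.8 CPM in MEFs (1507 UMIs), 0.931 in the Pax7 set (41 UMIs), 0.520 in the Myog set (24 UMIs), 0.308 in the Ckm set (15 UMIs) and 2.55 in the Dcn set (31 UMIs). MEFs were highest and the Dcn set came next, with intervals apart from the rest. At 5000 UMIs, 5.83% of MEF cells and at most 1.08% of cells of any iMPC set had a UMI. Fgf2 overlaps Gm43439 on its own strand, and Nudt6, Fgf2os and Gm42923 on the other. Whether the counting used strand is not given in the sources used here.

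**Figure D1:**
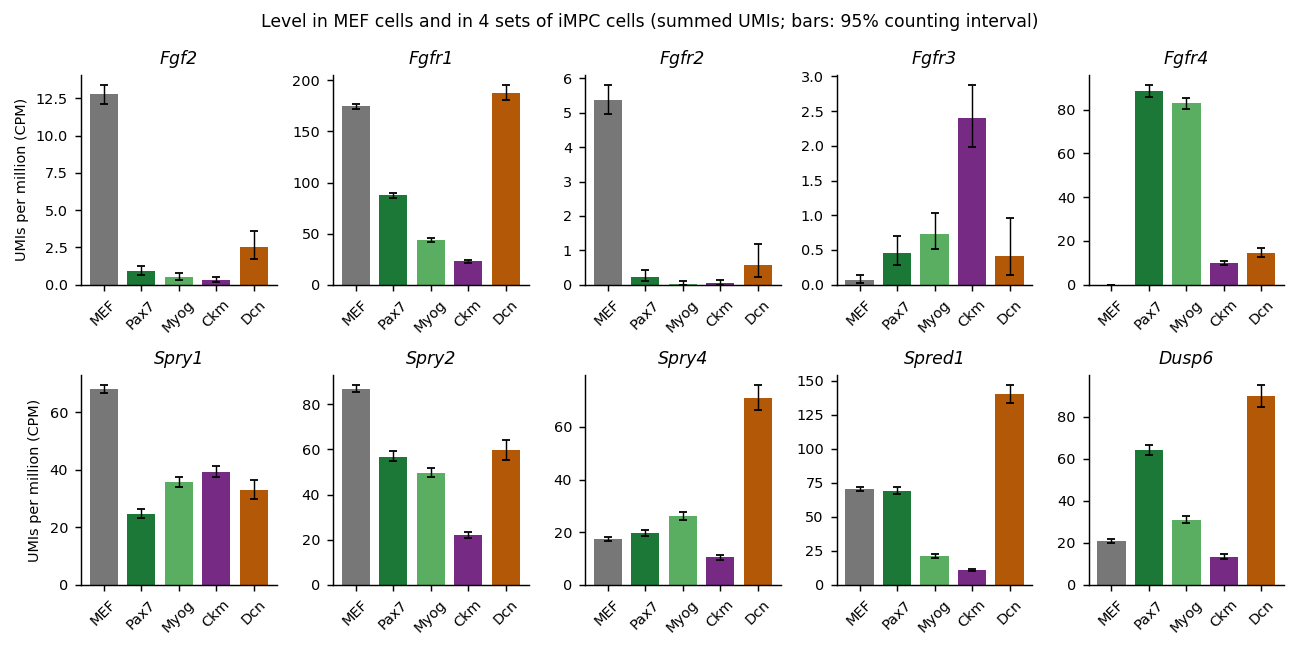
Level (CPM, each panel with its own axis from 0) of the 10 genes in MEF cells and the 4 iMPC sets, with exact 95% Poisson intervals. Fgfr4 has no UMI in MEFs and stands at 88.6 CPM in the Pax7 set, and Spry4, Spred1 and Dusp6 are highest in the Dcn set.

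The feedback inhibitors did not share 1 pattern. Spry1 (chr3:37639947-37644598, plus strand), the Sprouty gene tied to quiescence, stood at 68.0 CPM in MEFs, 24.8 in the Pax7 set, 35.7 in the Myog set, 39.4 in the Ckm set and 33.1 in the Dcn set. MEFs were clearly highest and the Pax7 set lowest, with intervals apart from all others, while the Dcn interval overlapped that of the Myog set. After thinning, 25.2% of MEF cells and 11.8% of Pax7 cells had a Spry1 UMI, with 14.5 to 16.2% in the other 3 sets. Spry2 (chr14:105891947-105896819, minus strand), another Sprouty gene, stood at 86.8 CPM in MEFs, 56.8 in the Pax7 set, 49.6 in the Myog set, 22.2 in the Ckm set and 59.6 in the Dcn set. Its Pax7 and Dcn intervals overlapped, and the Ckm set was lowest.

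Spry4, Spred1 and Dusp6 were highest in the Dcn set. Spry4 stood at 17.3 CPM in MEFs, 19.7 in the Pax7 set, 26.2 in the Myog set, 10.5 in the Ckm set and 71.1 in the Dcn set (interval 66.4 to 76.0). The thinned share of Spry4 was 29.8% in Dcn cells against 6.27 to 10.96% in the other 4 populations. Spred1 (chr2:117121374-117182279, plus strand), which brings the RAS inhibitor neurofibromin to the membrane, stood at 70.8 CPM in MEFs, 69.4 in the Pax7 set, 21.3 in the Myog set, 10.9 in the Ckm set and 140 in the Dcn set. MEFs and the Pax7 set overlapped for Spred1, and the Myog and Ckm sets were lower. Dusp6 (chr10:99263231-99267489, plus strand), the cytoplasmic ERK phosphatase, stood at 21.01 CPM in MEFs, 64.0 in the Pax7 set, 31.0 in the Myog set, 13.4 in the Ckm set and 89.7 in the Dcn set. No neighbours in the Dusp6 order overlapped, and its thinned share was 9.55% in MEF cells, 24.7% in Pax7 cells, 12.8% in Myog cells, 5.50% in Ckm cells and 38.0% in Dcn cells.

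The 6 comparisons between sets were read with a fixed size rule. A gene with at least 2 CPM in either set counts as higher or lower when its levels differ at least 2-fold. The interval of the ratio does not enter this rule. A gene that passes the 2 CPM minimum only through its high set is favoured to differ, so its call is partly built in. This holds for Fgfr2 and Fgfr4 in each comparison with MEFs, for Fgf2 in the Pax7 set and in all iMPC cells against MEFs, for Fgf2 in the Dcn against the Pax7 set, and for Fgfr3 in the Ckm against the Pax7 set. The counts therefore describe the members and support nothing more. The comparisons share sets, so they are not independent of each other.

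In the Pax7 set against MEFs, 9 of the 10 members passed the minimum, with Fgfr3 below it. Fgfr4 and Dusp6 were higher, against 17.1% of all genes tested. Fgf2, Fgfr1, Fgfr2 and Spry1 were lower, against 20.4% of all genes. The median log2 ratio of the 9 was -0.61, beside -0.08 over all 11752 genes tested. Dusp6 differed by a log2 ratio of 1.61 (interval 1.53 to 1.69), Fgf2 by -3.78, Fgfr2 by -4.57 and Spry1 by -1.45. Fgfr1 lay at -1.0002, on the threshold, and at -0.54 when cells with a Top2a UMI were left out of all sets, an alternative chosen after seeing the data. Spred1, at -0.03 with an interval of -0.09 to 0.03, and Spry4, at 0.18, differed little, and neither sign was stable: Spred1 lay at 0.24 without the Top2a cells, and Spry4 at -0.01 without cells that met more than 1 rule.

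In the Myog set against the Pax7 set, 7 members passed the minimum. None was higher, against 7.49% of all genes, and Spred1 and Dusp6 were lower, against 14.4%. Spred1 differed by a log2 ratio of -1.70 (interval -1.81 to -1.60) and Dusp6 by -1.05. The Dusp6 call was lost under the median of gene ratios (-0.83), CPM averaged over cells (-0.99) and stricter sets (-0.91). Fgfr1 lay just outside the rule at -0.99, and at -1.66 without the cells with a Top2a UMI. Spry1 (0.52) and Spry4 (0.41) had ratios above 0 but below 2-fold, and that of Spry4 was -0.03 without the Top2a cells. Fgfr4 differed by only -0.10 (interval -0.16 to -0.03), and by 0.11 under scaling to the median gene ratio, which moved the median of all genes from -0.19 to 0.02 and their split from 7.49% higher and 14.4% lower to 9.42% and 10.8%. The median of the 7 was -0.19, as over all 11278 genes tested.

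In the Ckm set against the Pax7 set, 8 members passed the minimum. Fgfr3 was higher, by a log2 ratio of 2.40 (interval 1.71 to 3.17), against 12.4% of all genes. Fgfr1, Fgfr4, Spry2, Spred1 and Dusp6 were lower, against 33.6% of all genes, with ratios of -1.93, -3.17, -1.36, -2.67 and -2.25. The median of the 8 was -1.64, beside -0.52 over all 11459 genes tested, so most genes had a lower CPM in the Ckm set. Scaling by the median of gene ratios moved that median from -0.52 to 0.02 and the split of all genes from 12.4% higher and 33.6% lower to 19.7% and 20.9%. Under that scaling Spry2 lay at -0.82, within 2-fold, Spry1 at 1.20, past it, and the other 5 called members kept their calls.

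In the Dcn set against the Pax7 set, 8 members passed the minimum. Fgf2, Fgfr1, Spry4 and Spred1 were higher, against 13.6% of all genes, with log2 ratios of 1.45, 1.11, 1.85 and 1.02. Fgfr4 was lower, at -2.61 (interval -2.83 to -2.39), against 7.20% of all genes, and only 0.302% of the genes tested lay at or below that ratio. The median of the 8 was 0.75, beside 0.04 over all 11590 genes tested. Without the cells with a Top2a UMI, Spry4 alone remained past 2-fold among the higher members, and Fgfr1 lay at 0.70. The 110 cells in both sets sat with the Dcn cells: their Fgfr1 was 223 CPM, Fgfr4 22.7, Spry4 63.9 and Spred1 158, against 79.9, 92.2, 17.3 and 64.6 CPM in the 2070 Pax7 cells outside the Dcn set.

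In the Dcn set against MEFs, the 2 populations rich in fibroblast transcripts, 9 members passed the minimum. Fgfr4, Spry4 and Dusp6 were higher, against 16.2% of all genes, Spry4 by 2.03 (interval 1.92 to 2.15) and Dusp6 by 2.09 (1.99 to 2.20). Fgf2, Fgfr2 and Spry1 were lower, against 14.2%, by log2 ratios of -2.33, -3.23 and -1.04. Spred1 lay just outside at 0.99 and passed 2-fold under 9 of the alternatives. The median of the 9 was 0.11, beside -0.08 over all 11897 genes tested. With all iMPC cells together against MEFs, Fgfr4 and Dusp6 were higher, against 16.8% of all genes, and Fgf2, Fgfr1, Fgfr2 and Spry1 lower, against 22.5%. Dusp6 lay at 1.04 there, and at 0.88 without the cells with a Top2a UMI. Spry1 lay at -1.13, and within 2-fold under 3 alternatives, at -0.94 to -0.97.

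**Figure D2:**
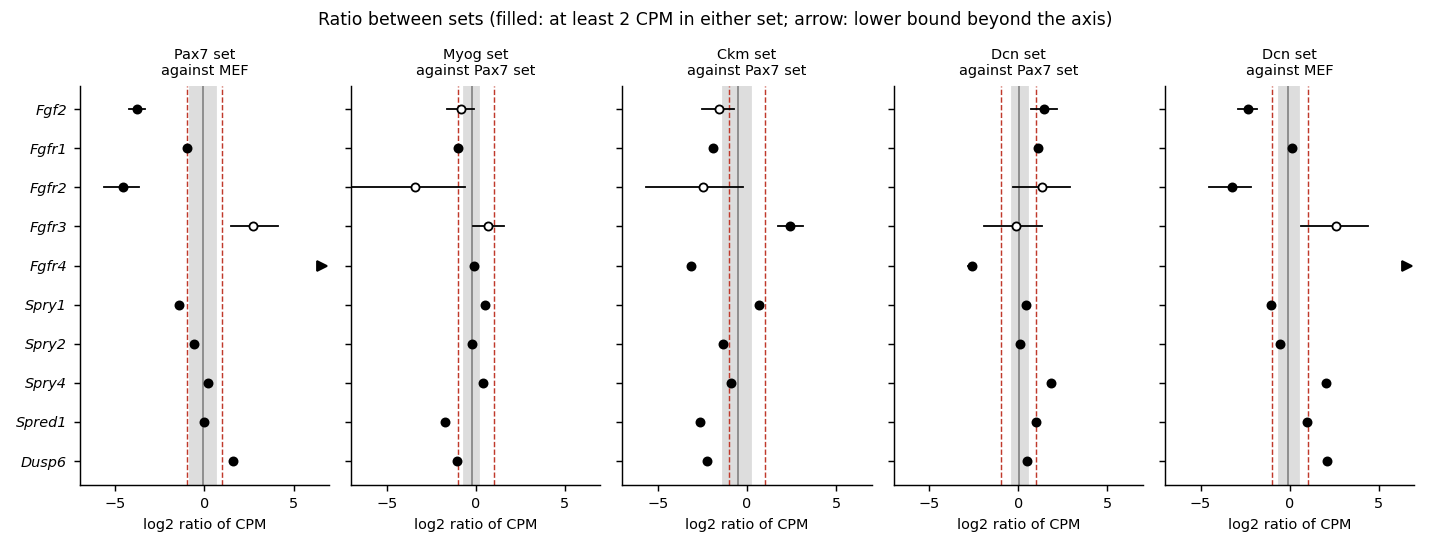
Log2 ratio of CPM for each member in 5 comparisons, with exact 95% intervals, the 2-fold limits dashed, and the median (grey line) and middle quartiles (grey band) of all genes tested. In the Ckm against the Pax7 set Fgfr4 lies at -3.17 and Fgfr3 at 2.40, and arrows mark Fgfr4 against MEFs, where its MEF count was 0.

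Other genes of the pathway were counted over lists taken by function. The same rule was used, so genes that passed the minimum only through their high set limit these counts as well. Of 15 transcription factor and other genes induced by ERK, 10 were at least 2-fold higher and 0 lower in the Pax7 set than in MEFs, where 17.1% and 20.4% of all genes were, with a median log2 ratio of 1.52. In the Dcn set 11 were higher and 0 lower than in MEFs, against 16.2% and 14.2% of all genes. The same list had 0 higher and 6 lower in the Myog set against the Pax7 set, where 7.49% and 14.4% of all genes were, and 0 higher and 8 lower in the Ckm set, where 12.4% and 33.6% were. Egr2, an early growth response factor, was among the largest of these differences, at 0.186 CPM in MEFs, 10.6 in the Pax7 set, 2.25 in the Myog set, 1.46 in the Ckm set and 23.7 in the Dcn set. Etv4, an ETS factor downstream of FGF, stood at 16.4 CPM in MEFs, 16.0 in the Pax7 set, 3.14 in the Myog set, 1.40 in the Ckm set and 23.4 in the Dcn set. Fosl1, a FOS family factor, stood at 36.4 CPM in the Pax7 set and 7.77 in the Myog set. Many early response genes also react to handling of cells, and the part of handling in these levels was not tested.

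Of 15 other feedback inhibitors, 14 passed the minimum, and 4 were higher and 3 lower in the Pax7 set than in MEFs, beside 17.1% and 20.4% of all genes. In the Ckm set 3 were higher and 8 lower than in the Pax7 set, beside 12.4% and 33.6% of all genes. Dusp2, a nuclear MAP kinase phosphatase, stood at 0.0423 CPM in MEFs, 12.2 in the Pax7 set, 13.3 in the Myog set, 42.5 in the Ckm set and 15.5 in the Dcn set, an order unlike that of Dusp6. Dusp7, the close relative of Dusp6, stood at 24.8 CPM in MEFs and 5.85 over all iMPC cells. Of 19 adaptors and kinases, 0 were higher and 5 lower in the Pax7 set than in MEFs, beside 17.1% and 20.4% of all genes, with a median of -0.37. Hras, a RAS gene, stood at 218 CPM in MEFs and 90.9 in the Dcn set.

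Of 16 coreceptors and ligand carriers, 13 passed the minimum, and 3 were higher and 3 lower in the Pax7 set than in MEFs, not far from the 17.1% and 20.4% of all genes. Gpc3, a glypican that carries heparan sulfate, stood at 8.26 CPM in MEFs, 211 in the Pax7 set, 86.4 in the Myog set, 20.9 in the Ckm set and 55.3 in the Dcn set. Its relative Gpc4 was lower in the Pax7 set (9.54 CPM) than in MEFs (67.9 CPM), and Gpc6 stood at 26.3 CPM in the Pax7 set and 2.61 in the Ckm set. Flrt2, a membrane protein known to bind FGF receptors, stood at 159 CPM in MEFs and between 9.55 and 20.7 in the 4 iMPC sets.

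Of the 21 other FGF family genes, 6 passed the minimum in the Pax7 set against MEFs, 3 of them higher and 3 lower, beside 17.1% and 20.4% of all genes. In the Ckm set against the Pax7 set 7 passed, 5 higher and 2 lower, beside 12.4% and 33.6% of all genes. Against MEFs, Fgf1, Fgf7, Fgf9, Fgf11 and Fgf13 passed the minimum only through their high set. In the Ckm against the Pax7 set, so did Fgf6, Fgf10, Fgf13 and Fgf21. These counts are thus partly built in by the minimum and describe the listed genes only. Fgf7, the mesenchymal ligand of epithelial FGFR2, stood at 51.3 CPM in MEFs, 0.9996 in the Pax7 set, 1.88 in the Myog set, 1.97 in the Ckm set and 16.3 in the Dcn set. Fgf6, a ligand known from skeletal muscle, had 0 UMIs in MEFs and stood at 0.204 CPM in the Pax7 set, 12.7 in the Myog set, 27.3 in the Ckm set and 2.38 in the Dcn set. Fgf9 stood at 0.0169, 2.32, 11.5, 23.2 and 3.53 CPM in that order of sets, and Fgf21, an endocrine FGF that muscle makes under stress, at 1.17, 1.45, 37.3, 71.2 and 11.6 CPM. Fgf13, which acts inside the cell rather than on receptors, was 4.62 CPM in MEFs and 20.8 in the Ckm set. Fgf1, which binds all FGF receptors, was highest in the Dcn set at 36.7 CPM, against 0.830 in MEFs and 7.43 in the Pax7 set. Fgf10, named after its values were seen, stood at 8.21 CPM in MEFs and 7.15 in the Dcn set. The ligand genes were thus split between the Myog and Ckm sets (Fgf6, Fgf9 and Fgf21) and MEFs (Fgf2 and Fgf7), with Fgf1 highest in the Dcn set and lowest in MEFs, while Fgfr4 was highest in the Pax7 and Myog sets.

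**Figure D3:**
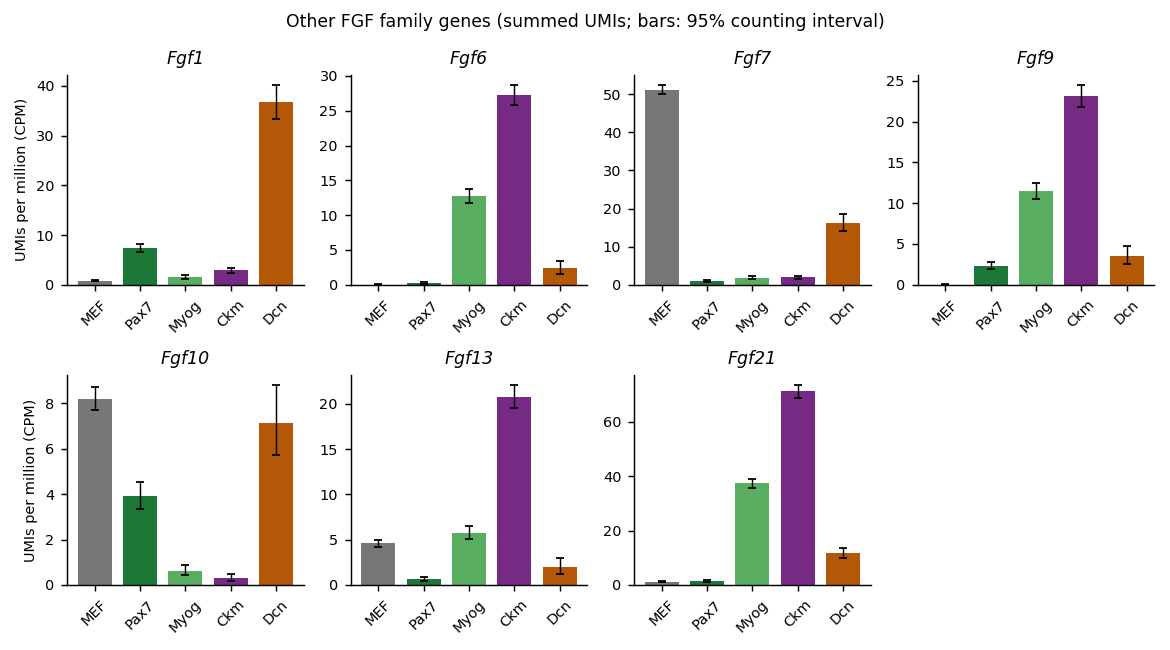
Level (CPM, each panel with its own axis from 0) of 7 other FGF family genes in MEF cells and the 4 iMPC sets, with exact 95% Poisson intervals. Fgf6, Fgf9, Fgf13 and Fgf21 are highest in the Ckm set, Fgf7 in MEFs and Fgf1 in the Dcn set.

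The iMPC cells were then divided further by their UMIs of Pax7, Myog and Ckm, groups chosen after values had been seen and given as a description. Fgfr4 was 114.7 CPM in the 214 Pax7 cells with at least 5 Pax7 UMIs, 92.6 in the 1077 with 2 to 4, and 74.96 in the 889 with 1. Fgfr1 ran the other way, at 67.5, 82.2 and 100.4 CPM. Spred1 (55.7, 65.6 and 78.9 CPM) and Spry4 (14.3, 18.99 and 22.3 CPM) ran with Fgfr1, and the intervals of Spry2 overlapped across the 3 groups. In these groups Dcn stood at 10.8, 48.8 and 85.4 CPM, Top2a at 464, 353 and 267 CPM, and median depth at 21768.5, 19286 and 17466 UMIs, and the part of each in the members' levels was not tested. Among cells with at least 5 Myog UMIs, Fgfr4 was 96.3 CPM in the 1275 without Ckm, 49.6 in the 449 with 1 Ckm UMI and 20.9 in the 431 with 2 to 4. It was 12.3 CPM in the 704 cells with 5 to 19 Ckm UMIs and 5.87 in the 327 with 20 to 99. Fgfr4 was thus lower at each step of Ckm, within the Myog cells and on to the groups defined by Ckm alone. The Pax7 and Myog sets as wholes were nevertheless nearly equal. Fgfr1 went from 46.0 to 22.6 CPM over the same 5 groups, Spry2 from 54.5 to 21.4, Spry4 from 26.6 to 9.70 and Dusp6 from 33.8 to 12.7. Spry1 stayed between 35.0 and 42.0 CPM. Fgfr3 stood at 0.549 CPM in the first of these groups and 2.96 in the last. Median depth went from 23088 to 52267 UMIs over these groups, and its part in the levels was not tested.

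**Figure D4:**
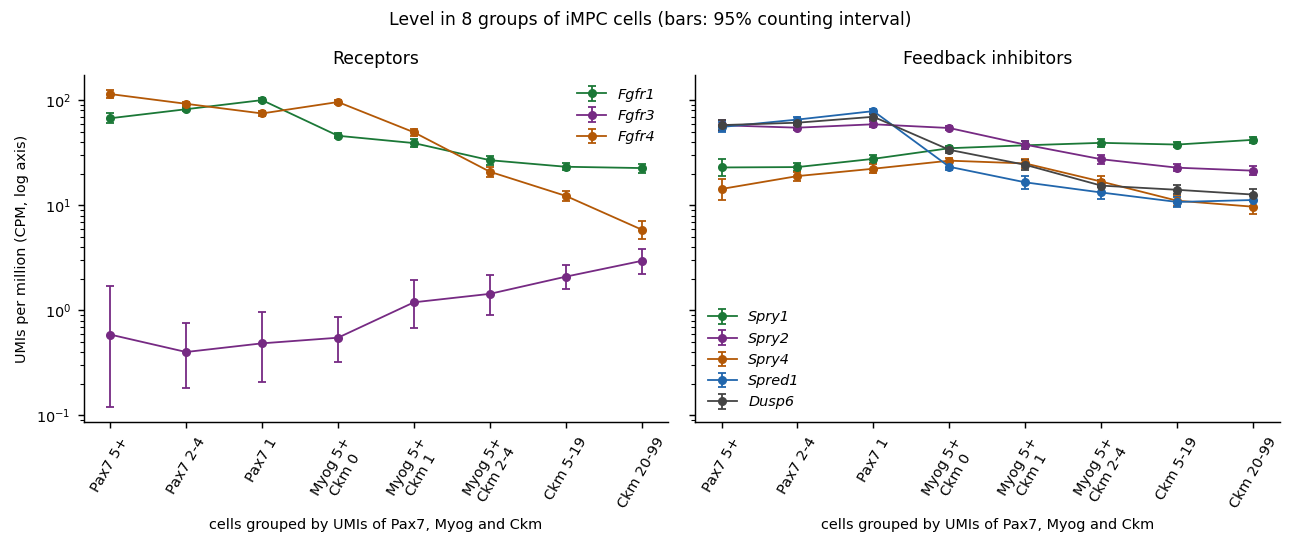
Level of 3 receptors and 5 feedback inhibitors (CPM, log axis) in 8 groups of iMPC cells ordered by UMIs of Pax7, Myog and Ckm, with exact 95% Poisson intervals. Fgfr4 goes from 96.3 CPM in Myog cells without Ckm to 5.87 CPM in cells with 20 to 99 Ckm UMIs, while Spry1 stays between 35.0 and 42.0 CPM.

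The Pax7 and Myog sets were also divided by Top2a. Top2a, the topoisomerase of dividing cells, had a UMI after thinning in 976 of the 2180 Pax7 cells. In these cells Fgfr1 was 55.2 CPM, against 123 CPM in the 1204 without, a log2 ratio of -1.16 (interval -1.25 to -1.06). Fgfr4 was 107 CPM with Top2a and 67.6 without, a ratio of 0.67 (0.57 to 0.76). Spry4 (14.1 and 25.9 CPM), Spry1 (19.5 and 30.7 CPM) and Spred1 (55.5 and 84.8 CPM) were lower in the cells with Top2a, and Spry2 (55.1 and 58.7 CPM) was level. Dusp6 was lower with Top2a too, at 57.2 and 71.6 CPM (-0.32, interval -0.43 to -0.22). Over all genes the median ratio was 0.03. The fibroblast marker Dcn moved with this split as well, at 21.4 CPM with Top2a and 98.8 without, and its part in these differences was not tested.

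In the Myog set the direction of Fgfr1 was the opposite, at 52.2 CPM with Top2a and 38.8 without (0.43, interval 0.30 to 0.55). Fgfr4 was again higher with Top2a, at 121 against 58.6 CPM (1.05, interval 0.95 to 1.14). Spred1 (28.7 and 16.6 CPM) and Dusp6 (40.2 and 25.2 CPM) were higher with Top2a in the Myog set, and Spry1 (31.0 and 38.6 CPM) lower. Spry2 was also higher, at 59.0 and 43.8 CPM (0.43, interval 0.31 to 0.55). For Spry4 (27.3 and 25.5 CPM) the interval of -0.07 to 0.27 included 0. Dusp6 thus had opposite directions in the Pax7 and Myog sets. Over all genes the median ratio was 0.17. Of the members shown, Fgfr4 was higher and Spry1 lower with Top2a in both sets. Cells counted as without Top2a lacked a UMI only after thinning, and in the Pax7 set they still held 56.1 CPM of Top2a, above the 36.6 CPM of MEFs.

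**Figure D5:**
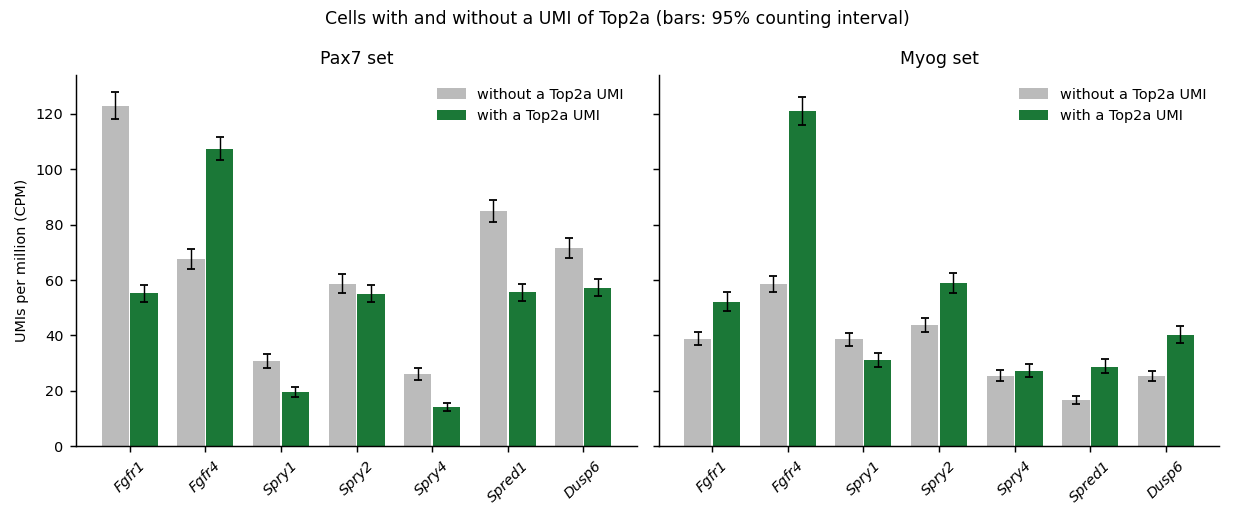
Level (CPM) of 7 members in Pax7 and Myog cells with a Top2a UMI (green) and without (grey), with exact 95% Poisson intervals. Fgfr4 is higher with Top2a in both sets, and Fgfr1 is lower with it in the Pax7 set and higher in the Myog set.

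Fgfr1 and Fgfr4 also lay apart from cell to cell in the Pax7 set. In cells thinned to 5000 UMIs, Fgfr4 was 64.2 CPM in the 711 cells with a Fgfr1 UMI and 100.3 in the 1469 without, a log2 ratio of -0.65 (interval -0.87 to -0.43). Spred1 was 105 CPM with a Fgfr1 UMI and 59.0 without (0.83, interval 0.63 to 1.04), and Spry4 29.3 and 16.5 CPM (0.83, interval 0.44 to 1.22). Dusp6 leaned the same way (0.41) and Spry2 did not differ (0.00, interval -0.24 to 0.24). Among Pax7 cells without Top2a the Fgfr4 ratio was -0.73 (-1.05 to -0.42), among those with it -0.31 (-0.63 to 0.00), and outside the Dcn set -0.54. Among the Pax7 cells with Top2a the intervals of Spred1 (0.24, -0.17 to 0.63) and Spry4 (0.58, -0.21 to 1.34) included 0, while among those without it the ratios were 0.97 and 0.75. In the Myog set the Fgfr4 ratio had the other sign, at 0.37 (0.12 to 0.60). These intervals treat the cells of 1 library as given and say nothing of other cultures.

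For each member the 3 genes with the most similar course over the 5 populations were found by the root mean square difference of centred log2(CPM + 1) values. For Fgfr4 the nearest was Cd200, a surface glycoprotein (0.313, 67.1, 48.2, 5.51 and 17.3 CPM in MEFs and the Pax7, Myog, Ckm and Dcn sets), at a distance of 0.48, followed by Parm1 and Car2. For Fgfr1 it was Kitl, the KIT ligand, at 0.06 (29.6, 15.3, 7.19, 3.14 and 29.7 CPM), followed by Ctsb and Gla. For Dusp6 it was Txnrd1, a thioredoxin reductase, at 0.11, then Ddit4 and Tnfrsf1b. For Spry4 it was Itga6, the integrin alpha chain, at 0.26. For Spry1, Spry2 and Fgf2 the nearest were Arf2, Fasn and Man2b2, each at 0.07, and for Fgfr2 and Fgfr3 Icmt and Dusp22. The added 1 flattens levels near or below 1 CPM, so the last 2 matches hold on that scale only. Fgfr2 stood at 5.39 CPM in MEFs and 0.0411 in the Ckm set, and Icmt at 33.2 and 3.99. Fgfr3 stood at 0.0678 and 2.40 CPM there, and Dusp22 at 12.1 and 42.4. The likeness rests on 5 points from 2 libraries.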

How the data were processed

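Both libraries were made with a droplet kit that reads transcript 3′ ends, per the labels' protocols. The deposited matrices hold whole-number UMI counts per gene and cell barcode, not normalized. Cell Ranger 4.0, Seurat 3.2.3 and the build GRCm38.p6 are named in the submitters' processing notes, and the annotation is not given in the sources used here. The iMPC matrix was deposited with small barcodes included, and the UMI minimum of 8036 is 10% of the 99th percentile of the top 10000 barcodes. The members, lists and sets were chosen with earlier results of these data known. Counts were summed per set with Python 3.11.15, pandas 2.3.3 and scipy 1.17.1, and the interval code was tested on simulated data. Each cell was thinned once to 5000 UMIs for shares, which left out 284 MEF cells and no iMPC cell. Calls needed a 2-fold difference and 2 CPM in the higher set, and the 95% intervals did not enter them. The pathway genes named are the 3 with the largest log2 ratio in each direction of each comparison. They were taken among those with at least 10 CPM in the higher set. Genes of like course needed 10 CPM in 1 population. Scrublet (scanpy 1.11.5) marked 337 of the iMPC cells (3.60%) as doublets, 1.33% of the Pax7 set, 7.02% of the Myog set, 7.91% of the Ckm set and 7.41% of the Dcn set. It marked 1 MEF cell, under the 0.5% at which a caller counts as working, so the 290 highest-scoring MEF cells stood in for its calls. Doublets were kept in the main values and left out as an alternative. Gene positions are from GENCODE M21 and start sequences from RefSeq, GRCm38.p6. The alternatives covered the cell filters, sets, doublets, scaling, free RNA, weights and thinning. Of the genes these rules pick, 2 are not reported here.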

Additional observations from a re-analysis of the deposited data

Results flagged for a closer look

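Barcodes of 200 to 600 UMIs in the iMPC library, which enter no comparison, held UMIs of 9 of the 10 members above the 0.141 CPM that a count of 0 allows there (3 counts over 48846 barcodes). Spry2 stood at 34.2 CPM, Fgfr4 at 32.7, Fgfr1 at 24.3, Dusp6 at 20.8, Spry1 at 19.4, Spred1 at 17.4, Spry4 at 14.7, Fgfr3 at 1.22 and Fgf2 at 0.329 CPM. Fgfr2 had 2 UMIs, under that limit. The level of Fgfr4 in these barcodes was above that in the Ckm set (9.82 CPM) and the Dcn set (14.5 CPM). Ckm itself stood at 181 CPM in them, against 95.8 CPM over all iMPC cells. With the profile of these barcodes subtracted from the iMPC cells, no member's log2 ratio changed sign. Barcodes of 1 to 100 UMIs gave other levels, with Spry2 at 73.5, Fgfr1 at 50.5, Fgfr4 at 41.7, Fgf2 at 2.74, Fgfr3 at 0.457 and Ckm at 86.4 CPM, so the free RNA level depends on the barcodes taken for it.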

How the results depend on the processing

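No paired analysis was possible because each group has 1 library. Over the alternatives, 150 counts of called members stayed within 1.5 times the main count and 6 did not. Members lower in the Myog against the Pax7 set were 2, and 1 under the median of gene ratios and 1 under stricter sets. Members higher in the Ckm against the Pax7 set were 1, and 2 under the median of gene ratios. Members higher in the Dcn against the Pax7 set were 4, and 2 when mitochondrial and ribosomal genes were dropped from the total and 1 with cells holding a Top2a UMI left out. Members higher in all iMPC cells against MEFs were 2, and 1 without those Top2a cells. Of the log2 ratios of members, 615 stayed within their counting interval, 165 moved beyond it and 0 changed sign as called values; of the thinned shares, 171 moved and 29 did not. The calls of Fgfr1 in the Pax7 set against MEFs and of Spry1 in the Dcn set against MEFs, both near 2-fold, were lost under 7 and 5 alternatives. Depth limits Fgfr2 and Fgfr3, whose counts are few in most iMPC sets. The causes were not tested.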
